A study of Mus musculus with 24 samples.

Results

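The interferon-stimulated genes are the genes that a cell switches on when interferon reaches its receptors. Their transcript levels were followed here in the liver and in 3 stretches of the small intestine of mice without caspase-1 and of wild-type mice. The set comprised 34 listed genes, and 34 of 34 had a probe set naming that gene alone, out of 18820 genes measured in this way. The list names the genes and sets no threshold on their values. Each gene was read from 1 probe set, because none of the 34 had a further probe set with its symbol alone.

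Caspase-1 is the protease of the inflammasome, which matures interleukin precursors, and the series asks about its part in the secretion of triglyceride-rich lipoprotein by gut and liver. All animals were male, 14 to 16 weeks of age and kept on chow. The knockout animals (Casp1-null) came from a line crossed back to C57BL/6 for 10 generations, and the controls were age-matched wild-type C57BL/6J mice that are not described as littermates. Livers were taken after an overnight fast of 16 h without oil. Duodenum, jejunum and ileum were taken from overnight-fasted mice 2 h after 200 µL of olive oil had been given into the stomach, and the RNA came from scraped epithelium. The 4 tissues and both genotypes made 8 groups of 3 arrays, 24 arrays in all, each made from 100 ng of RNA. The Casp1-null line was not set beside a line of the same breeding history with an intact Casp1, so the lack of caspase-1 and other differences between the lines cannot be told apart. In such bulk samples fewer cells of a type and less RNA per cell cannot be told apart either.

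Type I and type III interferons act through a DNA-binding complex that includes STAT2 and IRF9 and recognises the interferon-stimulated response element (ISRE), and type II interferon acts mainly through the gamma-activated sequence (GAS). The products of the target genes sense viral RNA, block its translation and replication, cut peptides for display to T cells, attack the vacuoles of intracellular pathogens and damp the signal again. In the intestinal epithelium, low levels of these genes are known to be kept up by the gut flora, and type III interferon is a main antiviral signal there. The 34 members are described by role: 4 carry or restrain the signal (Stat2, Irf9, Irf7 and the brake Usp18), 4 sense nucleic acid (Ddx58, Ifih1, Dhx58, Zbp1), 5 belong to the oligoadenylate synthetase family (Oas1a, Oas2, Oas3, Oasl1, Oasl2) and 4 are the Ifit genes with Isg15. A further 8 are other antiviral effectors (Mx1, Mx2, Rsad2, Bst2, Xaf1, Rtp4, Ifi35, Parp14), 5 are interferon-inducible GTPases (Gbp2, Gbp3, Gbp7, Iigp1, Irgm1), 3 supply peptides to class I molecules (Tap1, Psmb8, Psmb9) and 1 is the chemokine Cxcl10. Some members are neighbours on a chromosome and are not independent of each other: Oasl1 with Oasl2, Oas1a with Oas2 and Oas3, the 3 Ifit genes, the 3 Gbp genes, and Tap1 with Psmb8 and Psmb9.

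Stretches before the transcription start of 5 members are shown: Oasl2, the member called by genotype, its neighbour Oasl1, Ifit1, one of the members at least 2-fold lower in Casp1-null jejunum, and Gbp2 and Irgm1, which had the largest differences along the intestine. They are RefSeq sequences of the mouse assembly GRCm38.p6, 250 bases each, written 5′ to 3′ on the gene's own strand and ending at the base before the start. Capitals mark a match to the ISRE letters GAAANNGAAA on either strand, and where matches overlap the capitals run together.
Oasl2, chr5:114896684-114896933, plus strand: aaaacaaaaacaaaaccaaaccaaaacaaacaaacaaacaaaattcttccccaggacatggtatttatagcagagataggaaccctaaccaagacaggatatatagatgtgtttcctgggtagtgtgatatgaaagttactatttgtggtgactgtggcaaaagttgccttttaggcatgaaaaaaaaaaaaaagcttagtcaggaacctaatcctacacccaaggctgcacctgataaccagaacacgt
Oasl1, chr5:114922990-114923239, plus strand: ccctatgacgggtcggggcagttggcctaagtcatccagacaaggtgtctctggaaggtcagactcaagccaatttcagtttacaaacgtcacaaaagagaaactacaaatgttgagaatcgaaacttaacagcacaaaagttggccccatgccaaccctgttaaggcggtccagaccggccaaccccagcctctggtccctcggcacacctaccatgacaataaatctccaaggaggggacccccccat
Ifit1, chr19:34640639-34640888, plus strand: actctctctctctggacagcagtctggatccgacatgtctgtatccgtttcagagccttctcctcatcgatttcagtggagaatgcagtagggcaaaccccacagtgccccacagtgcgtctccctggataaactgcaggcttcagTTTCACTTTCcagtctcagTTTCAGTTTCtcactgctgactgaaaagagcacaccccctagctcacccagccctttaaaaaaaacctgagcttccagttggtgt
Gbp2, chr3:142620413-142620662, plus strand: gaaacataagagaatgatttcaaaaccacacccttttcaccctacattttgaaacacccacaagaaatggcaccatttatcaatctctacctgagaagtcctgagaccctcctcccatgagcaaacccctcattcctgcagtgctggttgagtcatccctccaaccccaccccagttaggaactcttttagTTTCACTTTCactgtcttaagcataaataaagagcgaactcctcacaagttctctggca
Irgm1, chr11:48871421-48871670, minus strand: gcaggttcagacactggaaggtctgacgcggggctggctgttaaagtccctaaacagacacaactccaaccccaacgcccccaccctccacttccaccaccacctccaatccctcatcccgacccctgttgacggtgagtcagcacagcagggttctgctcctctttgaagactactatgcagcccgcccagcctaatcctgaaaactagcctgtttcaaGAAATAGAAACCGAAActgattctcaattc
The windows searched reached from 250 bases before to 50 bases after the start. They were at hand for 25 of the 34 members, some with more than 1 start, which made 28 windows. ISRE letters occurred in 15 of the 28 windows (53.6%), against 1131 of all 32851 windows of that length (3.44%). The GAS letters TTCNNNGAA, also searched on both strands and free to overlap an ISRE match, occurred in 6 of the 28 windows (21.4%), against 8.3% of all windows. In Ifit1 the ISRE matches began 104 and 85 bases before the start, in Gbp2 59 bases before it, and in Irgm1 30 and 24 bases before it. The window of neither Oasl1 nor Oasl2 held a match to either motif, which says only that these letters were not in these windows.

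The members could be read in nearly all groups, but with more scatter than genes at large. The values are log2 expression values, and the smallest of the arrays' medians, 4.87 in intestine and 5.19 in liver, served as a background mark under which a group mean was not read as expression. Between 2 and 4 of the 34 members lay under that mark in each group. Isg15 did so in all 8 groups, Mx2 in the 6 intestinal groups, Ifit2 in duodenum and jejunum, Iigp1 in wild-type duodenum and jejunum, and Oas3 and Mx1 in liver. Within groups of 3 arrays the median SD of the members was 0.138 to 0.468, against 0.111 to 0.154 for all 18820 genes.

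Labels and tissues were checked against their defining genes before any comparison. Casp1 was 4.21-fold lower in duodenum, 8.41-fold lower in jejunum and 4.66-fold lower in ileum of the Casp1-null mice (adjusted p = 0.000166, 3.06e-06 and 9.28e-05), and in liver, where it was not shown above background, the difference was not called (adjusted p = 0.503). The mean level of 10 enterocyte markers was 11.59 to 12.89 in the intestinal arrays, and that of 10 hepatocyte markers was 12.69 to 12.85 in the liver arrays. The arrays of wild-type ileum 2 and Casp1-null ileum 3 stood apart in smooth muscle and stroma, with a median of 10 markers 4.03 and 3.30 above the ileal mean while the other 4 ileal arrays lay between -2.09 and -1.60. Wild-type duodenum 1 carried exocrine pancreas RNA, with a median of 12 markers 4.17 above the duodenal mean against -0.97 to -0.68 in the Casp1-null duodenum. Nothing in the labels says that arrays with the same replicate number came from the same mouse, so the p-values measure only the spread between these samples.

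Of the 34 members, Oasl2 differed by genotype, and it did so in the duodenum and the jejunum. Oasl2 (Entrez gene 23962, chromosome 5) encodes an oligoadenylate synthetase-like protein. In duodenum the wild-type arrays read 10.02, 10.47 and 10.70 and the Casp1-null arrays 8.80, 8.77 and 8.19. In jejunum the wild-type arrays read 10.76, 10.63 and 10.19 and the Casp1-null arrays 9.10, 8.71 and 8.42. In both segments every Casp1-null array lay at least 1 log2 unit under every wild-type array. The level fell from 10.40 ± 0.344 to 8.59 ± 0.341 in duodenum (SD, n = 3 each), a fall of 3.51-fold (log2 difference -1.81, SE 0.265, adjusted p = 0.00214). It fell from 10.52 ± 0.299 to 8.74 ± 0.341 in jejunum (SD, n = 3 each), a fall of 3.44-fold (log2 difference -1.78, SE 0.265, adjusted p = 0.00228).

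Oasl2 values in ileum were 10.71, 9.79 and 10.33 in the wild type and 10.01, 9.48 and 9.52 in the Casp1-null mice, so the groups overlapped (log2 difference -0.61, adjusted p = 0.705). The liver held 7.35, 7.08 and 7.25 against 6.89, 7.19 and 7.29, again overlapping (log2 difference -0.10, adjusted p = 0.841). A smaller difference in ileum than in the other segments did not pass the test of the interaction, in which ileum differed from jejunum by 1.17 (SE 0.375, adjusted p = 0.723) and from duodenum by 1.2 (adjusted p = 0.65). The difference in liver did differ from the mean of the segments, by 1.30 (SE 0.282, adjusted p = 0.0175). That call was lost without wild-type liver 2 (adjusted p = 0.0691), Casp1-null liver 2 (0.0577) or Casp1-null liver 3 (0.0675). The difference itself changed little, to 1.222, 1.26 and 1.214. Averaged over the segments of 1 replicate number, Oasl2 was 2.64-fold lower in Casp1-null intestine (log2 difference -1.40, SE 0.148, adjusted p = 0.00724).

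**Figure D1:**
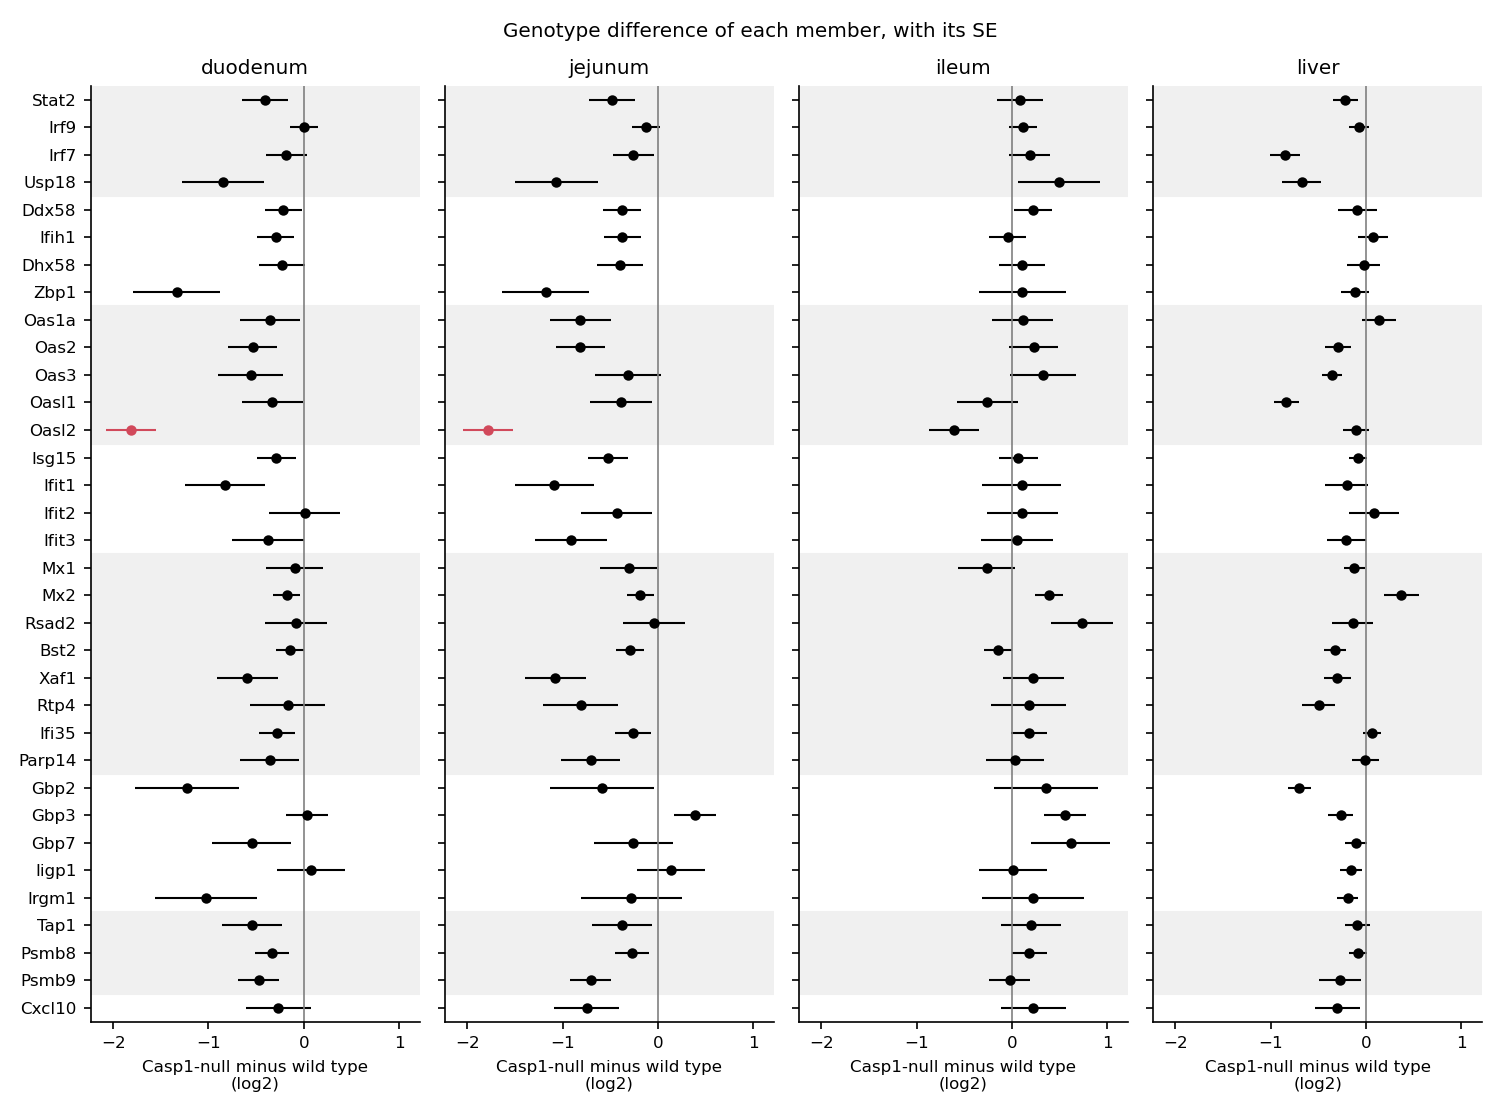
The log2 difference, Casp1-null minus wild type, of each of the 34 members in liver, duodenum, jejunum and ileum, ordered by role, with bars of 1 SE of the fit and called differences in red. The only red points are Oasl2 in duodenum (-1.81) and jejunum (-1.78), and points lie mostly left of 0 in liver, duodenum and jejunum and mostly right of 0 in ileum.

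Counted over all members, jejunum held 1 call among 34, against 2.06% of all genes called there. An unadjusted p under 0.05 was reached by 12 members and by 2433 of all 18820 genes. The Casp1-null jejunum had the lower mean for 32 of the 34, with a median log2 difference of -0.39 against -0.002354 over all genes. The arrays of both genotypes did not overlap, with the Casp1-null arrays lower, for 17 of the 34, where 9.24% of all genes showed this. Isg15 and Ifit2, under the background mark in both jejunal groups, were among the 17. In the other direction 1 member, Gbp3, stood apart, where 10.3% of all genes did. Leaving out any 1 array kept 31 or 32 members below 0, with the median between -0.479 and -0.354.

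By role in jejunum, the oligoadenylate synthetase family had a median difference of -0.81, the Ifit genes with Isg15 -0.72, the sensors -0.39, the class I suppliers -0.38, the signalling genes -0.37, the other effectors -0.30 and the GTPases -0.26. The value of -0.72 rests partly on Isg15 and Ifit2, which lay under the background mark in both jejunal groups. Apart from Oasl2, 4 members were at least 2-fold lower there with groups that did not overlap, and none of these 4 passed the adjustment. Zbp1, a sensor of Z-form nucleic acid that can trigger cell death, read 9.51, 9.46 and 9.0 in wild-type and 8.51, 8.09 and 7.83 in Casp1-null jejunum (log2 difference -1.18, SE 0.455, adjusted p = 0.300). Usp18, the protease that removes ISG15 from proteins and restrains the type I receptor, read 10.52, 10.17 and 10.08 against 9.33, 9.33 and 8.93 (log2 difference -1.06, SE 0.431, adjusted p = 0.337). Xaf1, a pro-apoptotic effector, read 7.14, 7.0 and 6.53 against 6.26, 5.86 and 5.32 (log2 difference -1.08, SE 0.317, adjusted p = 0.131). For these 3 genes every Casp1-null array was below every wild-type array, but the spread shared by the 18 intestinal arrays was wide.

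Ifit1, which binds viral RNA that lacks the host's cap marks, read 9.44, 9.0 and 8.84 in wild-type jejunum and 8.66, 8.56 and 6.80 in Casp1-null jejunum (log2 difference -1.09, SE 0.416, adjusted p = 0.295), so that 1 array, Casp1-null 3, made much of its distance. Its neighbour Ifit3 had groups apart as well (-0.91, adjusted p = 0.356). The immunoproteasome subunit gene Psmb9 had the tightest wild-type jejunal values of any member, 9.54, 9.51 and 9.53, against 8.95, 8.79 and 8.73 in Casp1-null jejunum (log2 difference -0.71, SE 0.214, adjusted p = 0.145). Psmb9 was called when the jejunum was fitted without the other segments, and also when wild-type duodenum 1 or wild-type duodenum 3 was left out, which raised the jejunal calls from 1 to 2. Cxcl10, which attracts activated T cells, read 6.11, 6.18 and 6.63 against 5.85, 5.37 and 5.46 (-0.75, adjusted p = 0.424) and was called when both stroma-high ileal arrays were left out. Oas1a, an enzyme that makes the messenger which activates RNase L, read 8.06, 7.77 and 7.54 against 7.23, 7.14 and 6.55 (-0.81, adjusted p = 0.307). A second probe set that matches Oas1a together with Oas1g read 8.99, 8.67 and 8.4 in wild-type and 8.08, 8.11 and 7.39 in Casp1-null jejunum, so the groups were apart there too.

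**Figure D2:**
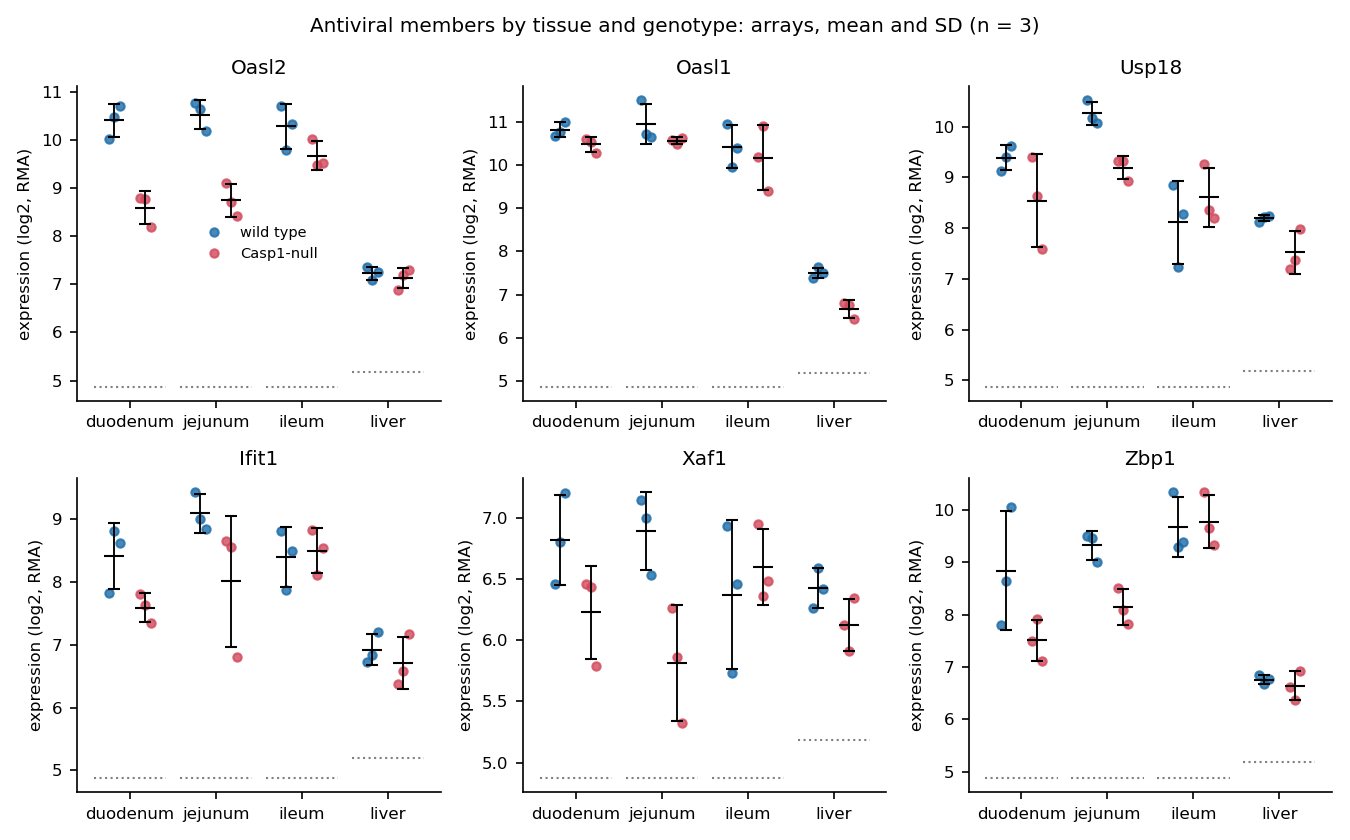
Log2 expression of Oasl2, Oasl1, Usp18, Ifit1, Xaf1 and Zbp1 in the 8 groups, with 1 dot per array, a black bar for the mean ± SD (n = 3) and a dotted line at the lowest array median of the tissue. In jejunum the Casp1-null dots of all 6 genes lie below the wild-type dots, whereas in ileum the dots of both genotypes overlap for each of the 6.

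In duodenum the counts were smaller and rested more on single arrays. Oasl2 was the 1 call among 34 members, where 1.21% of all genes were called. At an unadjusted p under 0.05 there were 4 members, against 2451 of all 18820 genes. The difference was below 0 for 30 of the 34, with a median of -0.33 against -0.02 over all genes. The Casp1-null arrays lay entirely below the wild-type arrays for 5 members (Oasl2, Oasl1, Oas2, Ifit1 and Cxcl10), where 11.1% of all genes did, and entirely above for 0, where 11.6% of all genes did. Without wild-type duodenum 3 the median was -0.173, with 28 members below 0.

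The members with the next largest duodenal differences were highest in that same array. Zbp1 read 7.81, 8.65 and 10.06 in wild-type and 7.49, 7.92 and 7.12 in Casp1-null duodenum (-1.33, adjusted p = 0.221). Gbp2, a GTPase that is recruited to vacuoles of intracellular pathogens, read 6.40, 6.77 and 9.10 against 6.15, 6.44 and 6.00 (-1.23, adjusted p = 0.371). Irgm1, which regulates the same class of GTPases and autophagy, read 6.30, 7.47 and 9.53 against 6.71, 6.70 and 6.81 (-1.03, adjusted p = 0.458). In all 3 genes wild-type array 3 was the highest by more than 1 log2 unit and the groups overlapped.

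Several marker lists of other cell types stood apart by genotype in duodenum, with the higher values in the Casp1-null arrays. The median deviation of 8 B and plasma cell markers was -0.47 to -0.32 in the wild-type arrays and 0.07 to 0.80 in the Casp1-null arrays. For 13 myeloid markers it was -0.23 to -0.10 against 0.03 to 0.45, for 10 smooth muscle and stroma markers -0.30 to -0.11 against 0.16 to 0.20, and for 7 endothelial markers -0.34 to -0.24 against 0.00 to 0.53. The mean level of the endothelial markers was under the background mark in both genotypes (4.13 to 4.18 against 4.37 to 4.85). That of the stroma markers was under it in the wild type (4.42 to 4.58) but not in the Casp1-null mice (5.11 to 5.56). For 7 markers of plasmacytoid dendritic cells, which make type I interferon, the median deviations overlapped (-0.06 to 0.11 against -0.02 to 0.17). In jejunum the ranges of the 13 myeloid markers (-0.37 to -0.01 against -0.06 to 0.64), of the stroma markers (-0.37 to -0.05 against -0.27 to 0.98) and of 14 T, NK and intraepithelial lymphocyte markers (-0.07 to 0.15 against -0.37 to 0.20) overlapped. Of those 14, Cd4 (0.80, adjusted p = 0.013) and Cd8b1 (0.86, adjusted p = 0.0311) were called higher in Casp1-null mice in the mean over segments, and 0 were called lower. Of all 18820 genes 186 were called higher there and 204 lower. These single genes do not show a shift of the list as a whole. Cd8b1 read 6.50, 6.26 and 6.36 in wild-type and 7.57, 6.99 and 7.74 in Casp1-null jejunum. Their part in the members' differences was not tested.

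In ileum the members leaned the other way, and this lean rested on single arrays. There were 0 calls among 34 members by limma, where 0.893% of all genes were called. At an unadjusted p under 0.05 there were 4 members, against 1299 of all 18820 genes. The difference was above 0 for 28 of the 34, with a median of 0.15 against -0.01 over all genes. Without wild-type ileum 2, an array high in stroma, the difference was below 0 for 24 of the 34 and the median was -0.08. Without Casp1-null ileum 1 it was below 0 for 18 (median -0.00275), and without both stroma-high arrays for 21 (median -0.04). No member had its Casp1-null arrays entirely below (4.74% of all genes did), and 2 had them entirely above (4.49% of all genes did). One of these was the antiviral enzyme gene Rsad2, at 7.80, 7.27 and 8.08 in the wild type and 8.65, 8.56 and 8.14 in the Casp1-null mice (0.73, adjusted p = 0.714), and the other was Mx2, under the background mark in both.

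**Figure D3:**
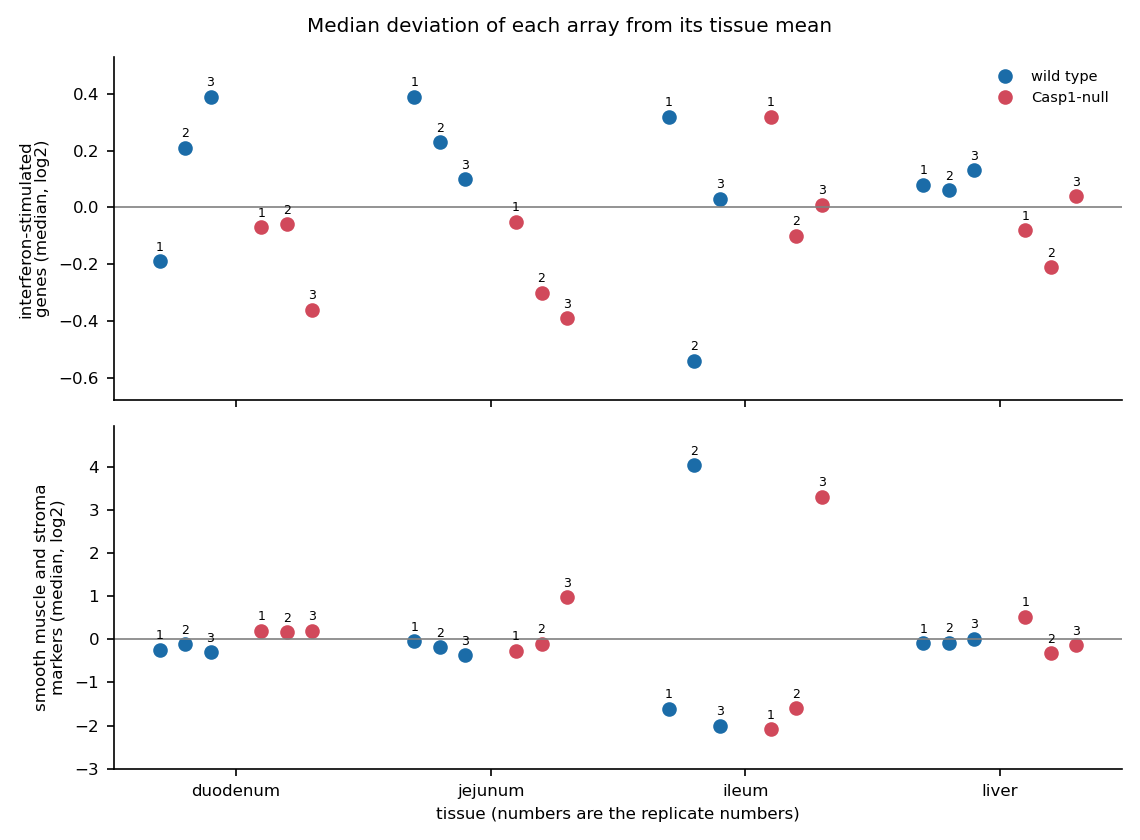
For each of the 24 arrays, the median over the 34 members (top) and over 10 smooth muscle and stroma markers (bottom) of the log2 deviation from the mean of that gene in the tissue. Wild-type ileum 2 has the lowest median of the members (-0.54) together with the highest of the stroma markers (4.03), but Casp1-null ileum 3, also high in stroma (3.30), has a median of the members of 0.01.

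Liver showed smaller differences, with 3 members just short of the threshold. There were 0 calls among 34 members by limma against 0.925% of all genes. At an unadjusted p under 0.05 there were 7 members, against 2416 of all 18820 genes. The difference was below 0 for 29 members, with a median of -0.15 against -0.01 over all genes. Casp1-null arrays lay entirely below wild-type arrays for 7 members, where 11.1% of all genes did, and entirely above for 0, where 8.96% did. Those 7 were Oasl1, Irf7, Gbp2, Usp18, Rtp4, Oas3 and Bst2, of which Oas3 lay under the background mark in both genotypes.

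Oasl1, a relative of Oasl2 that holds back translation of Irf7, read 7.39, 7.63 and 7.50 in wild-type and 6.81, 6.76 and 6.43 in Casp1-null liver (-0.84, SE 0.132, adjusted p = 0.0549). Irf7, the factor that amplifies type I interferon genes, read 7.95, 8.31 and 8.34 against 7.31, 7.17 and 7.57 (-0.85, SE 0.154, adjusted p = 0.0833). Gbp2 read 6.19, 6.05 and 5.88 against 5.18, 5.45 and 5.38 (-0.70, SE 0.122, adjusted p = 0.0740). All 3 had groups that did not overlap, and all 3 were called when probe sets under the median were dropped before the adjustment. Usp18 read 8.13, 8.22 and 8.24 against 7.20, 7.37 and 7.99 (-0.67, adjusted p = 0.256) and was called when Casp1-null liver 3 was left out. Several marker lists were lower in the Casp1-null livers too. The median deviation of 8 B and plasma cell markers was 0.04 to 0.40 in the wild type and -0.29 to -0.25 in the Casp1-null mice, that of 10 enterocyte markers 0.07 to 0.60 against -0.38 to -0.22, that of 6 goblet cell markers 0.12 to 0.64 against -0.40 to -0.27, and that of 7 plasmacytoid dendritic cell markers 0.05 to 0.06 against -0.11 to -0.02. Among them Zg16, listed as a goblet cell secretory gene, was called 3.30-fold lower (adjusted p = 0.0387). The enterocyte and goblet cell lists name intestinal cell types, so in liver they are read as levels of these genes and not as numbers of those cells. Those of 10 hepatocyte markers were slightly higher (-0.09 to 0.00 against 0.02 to 0.05), and those of 6 Kupffer cell markers overlapped (-0.32 to 0.21 against -0.29 to 0.37). The mean level of the plasmacytoid dendritic cell markers was under the background mark in both genotypes (4.74 to 4.83 against 4.63 to 4.69). That of the B and plasma cell markers was under it in the Casp1-null livers (4.78 to 4.83), against 5.08 to 5.61 in the wild type. The part of all these markers in the members' differences was not tested.

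The direct tests of whether genotype differences varied between segments called 0 of the 34 members. Between ileum and jejunum 6 members had an unadjusted p under 0.05 in limma, as did 964 of all 18820 genes. The difference of differences was above 0 there for 33 of the 34 members, with a median of 0.59 against -0.01 over all genes. Without wild-type ileum 2 it was above 0 for 32 with a median of 0.424, and without both stroma-high arrays for 32 with a median of 0.386. The largest were Usp18 (1.55, adjusted p = 0.891), Xaf1 (1.30, adjusted p = 0.845) and Zbp1 (1.29, adjusted p = 0.994). Between ileum and duodenum 31 were above 0 (median 0.48), with 4 at an unadjusted p under 0.05, against 1154 of all 18820 genes. Between duodenum and jejunum 22 were above 0 (median 0.10), with 0 at an unadjusted p under 0.05, against 899 of all genes. These tests called 0.0425%, 0.0691% and 0.0531% of all genes, so few genes of any kind passed them. For liver against the segments the only member called was Oasl2, where 2.78% of all genes were called, and in the mean over segments Oasl2 was again the only member called, where 2.07% were.

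Along the intestine the largest differences of any member were those of the GTPase genes Gbp2 and Irgm1. Between ileum and jejunum 5 of the 34 members were called in the wild type and 9 in the Casp1-null mice, against 15.4% and 12.8% of all genes. Between ileum and duodenum these counts were 8 and 11, against 27.9% and 21% of all genes. In the wild type the members were thus called no more often than genes at large. Duodenum against jejunum gave 0 calls among the members in either genotype. There limma called 7.76% of all genes in the wild type and 5.85% in the Casp1-null mice. An unadjusted p under 0.05 was reached by 5 members and 4024 of all 18820 genes in the wild type. In the Casp1-null mice it was reached by 4 members and 3351 genes. Comparisons within 1 genotype share arrays with each other, so they are not independent.

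Gbp2 was higher in ileum than in jejunum in both genotypes. Its jejunal arrays read 7.22, 7.14 and 6.60 in the wild type and 6.73, 6.13 and 6.34 in the Casp1-null mice, and its ileal arrays 9.57, 8.70 and 8.4 and 10.04, 8.96 and 8.74. Every ileal array exceeded every jejunal array by more than 1 log2 unit. Gbp2 was 3.74-fold higher in ileum than in jejunum of the wild type (1.90, SE 0.545, adjusted p = 0.0335) and 7.20-fold higher in the Casp1-null mice (2.85, SE 0.545, adjusted p = 0.00381). Against duodenum it was 8.28-fold higher in the Casp1-null ileum (3.05, SE 0.545, adjusted p = 0.00108), and not called in the wild type, where 1 duodenal array read 9.10. The wild-type call against jejunum was lost without any 1 of the 3 jejunal arrays, without wild-type ileum 1 or 2 and without both stroma-high arrays (adjusted p up to 0.113), while both Casp1-null calls held under all alternatives.

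Irgm1 was low in Casp1-null duodenum, at 6.71, 6.70 and 6.81, and high in Casp1-null ileum, at 10.13, 9.22 and 10.01. That was an 8.27-fold difference (3.05, SE 0.534, adjusted p = 0.000928). The wild-type duodenum read 6.30, 7.47 and 9.53 and the ileum 9.89, 9.28 and 9.52, a 3.47-fold difference (1.80, SE 0.534, adjusted p = 0.0238) with groups that overlapped. That wild-type call was lost without wild-type duodenum 1, where the difference was 1.06, and without wild-type duodenum 2 or wild-type ileum 1 or 3 (adjusted p up to 0.112). Gbp7, a GTPase of the same family as Gbp2, read 7.48, 6.65 and 7.09 in Casp1-null jejunum and 9.02, 8.23 and 8.85 in Casp1-null ileum (1.63, SE 0.416, adjusted p = 0.0217), and it was also higher in ileum than in duodenum of these mice (1.79, adjusted p = 0.00741). The immunity-related GTPase gene Iigp1 read 4.69, 4.73 and 4.85 in wild-type jejunum, under the background mark, and 6.88, 6.71 and 5.67 in wild-type ileum. It was thus at least 2.92-fold higher in ileum (adjusted p = 0.00633), also against wild-type duodenum at 4.80, 4.82 and 4.99 (at least 2.92-fold, adjusted p = 0.00511), and in the Casp1-null mice the ileal arrays at 7.03, 5.57 and 6.70 exceeded the jejunal ones at 4.66, 4.49 and 5.54 (1.53, SE 0.357, adjusted p = 0.0131).

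**Figure D4:**
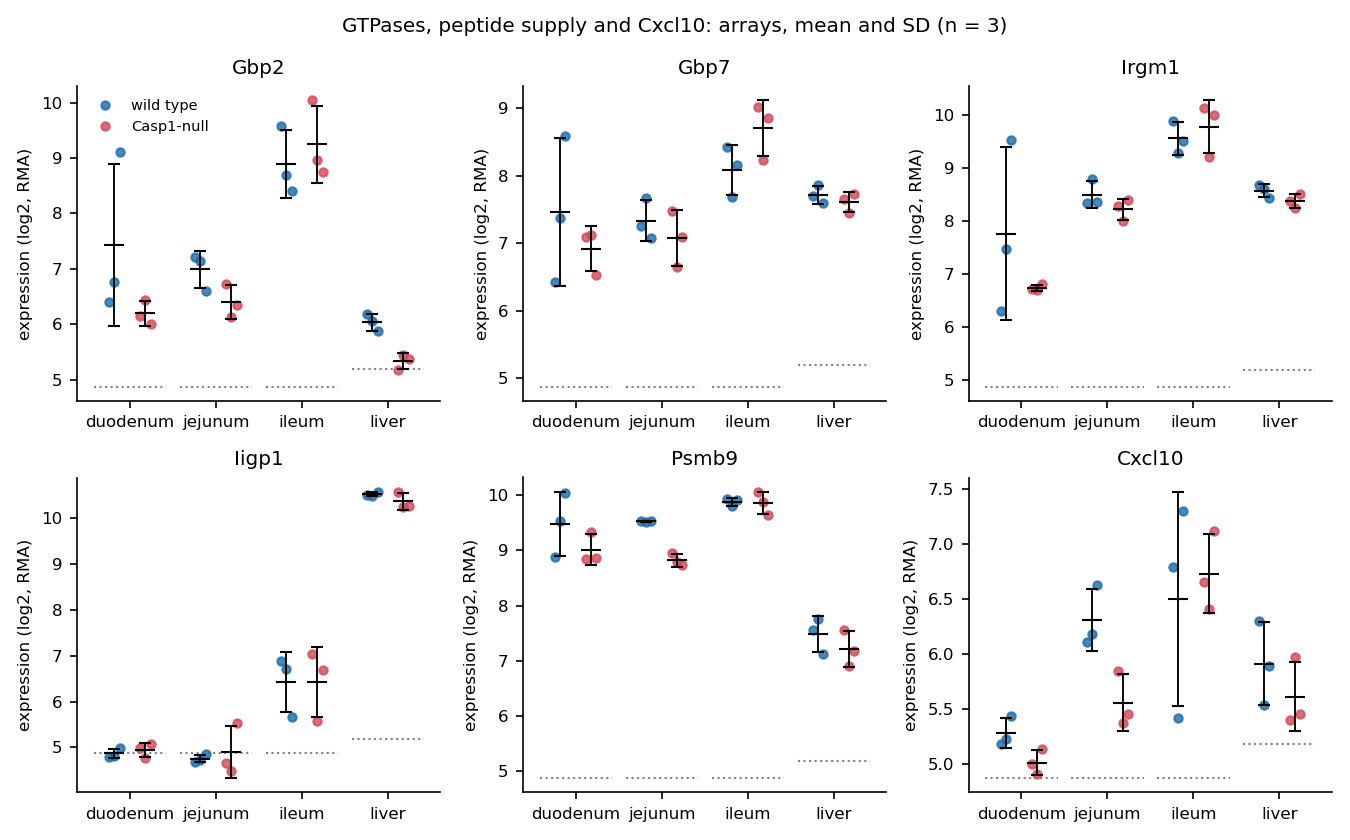
Log2 expression of Gbp2, Gbp7, Irgm1, Iigp1, Psmb9 and Cxcl10 in the 8 groups, with 1 dot per array, a black bar for the mean ± SD (n = 3) and a dotted line at the lowest array median of the tissue. Gbp2 in ileum lies between 8.4 and 10.04 in both genotypes against 6.13 to 7.22 in jejunum, and Iigp1 rises from near the dotted line in duodenum and jejunum to 10.24 to 10.58 in liver.

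Other roles took part to differing degrees. In the Casp1-null mice 9 members were higher in ileum than in jejunum and 0 were lower, where 12.8% of all genes were called and 6.77% were higher. Besides Gbp2, Gbp7 and Iigp1 these were Zbp1 (1.63, adjusted p = 0.0337), Cxcl10 (1.17, adjusted p = 0.0426), Psmb9 (1.04, adjusted p = 0.00615), Oasl2 (0.93, adjusted p = 0.0378), Stat2 (0.79, adjusted p = 0.0495) and Ifit2, at least 1.93-fold higher (adjusted p = 0.0219). The count fell to 2 without Casp1-null jejunum 2 or Casp1-null ileum 1, to 3 without Casp1-null ileum 3 and to 5 without Casp1-null jejunum 3, and the calls of Gbp2 and Psmb9 were the ones kept under all alternatives. Against Casp1-null duodenum 11 members were higher in ileum and 0 were lower, where 21% of all genes were called and 10.8% were higher. These added Irgm1, the peptide transporter gene Tap1 (1.29, adjusted p = 0.0104) and Mx2, under the background mark in both segments, and they did not include Stat2. That count was 6 without Casp1-null ileum 1, and the calls of Gbp2, Irgm1, Zbp1, Gbp7, Cxcl10 and Mx2 were kept under all alternatives. Zbp1 read 7.49, 7.92 and 7.12 in Casp1-null duodenum and 10.35, 9.65 and 9.34 in ileum, a 4.83-fold difference (2.27, SE 0.455, adjusted p = 0.0026).

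In the wild type the calls went both ways. Between ileum and jejunum 5 members were called, where 15.4% of all genes were, and between ileum and duodenum 8 were called, where 27.9% of all genes were. Neither share of the members exceeded that of all genes. Usp18 read 10.52, 10.17 and 10.08 in wild-type jejunum and 8.85, 7.23 and 8.28 in wild-type ileum, a fall of 4.41-fold (-2.14, SE 0.431, adjusted p = 0.00413), and it was also lower in ileum than in duodenum (-1.27, adjusted p = 0.0450). Its arrays did not overlap between wild-type jejunum and ileum, and in the Casp1-null mice Usp18 was called in neither comparison, at 9.27, 8.35 and 8.19 in ileum. Ifi35, which binds the signalling modulator NMI, was lower in wild-type ileum than in jejunum (-0.87, SE 0.187, adjusted p = 0.00657) and in duodenum (-0.79, adjusted p = 0.00621). Its ileal arrays read 9.32, 8.44 and 9.08 against 9.89, 9.73 and 9.83 in jejunum.

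Irf9, the DNA-binding partner of STAT2, was lower in wild-type ileum than in duodenum (-0.44, adjusted p = 0.0425), while Cxcl10 (1.22, adjusted p = 0.0170) and Ifit2 (at least 1.79-fold, adjusted p = 0.0434) were higher. Isg15 was called as well but lay under the background mark in every group, so no size is given. The wild-type count between ileum and duodenum was 2 without wild-type duodenum 2, 4 without wild-type duodenum 1 or wild-type ileum 3, and 5 without Casp1-null duodenum 2, wild-type jejunum 2, Casp1-null jejunum 2 or wild-type ileum 1. It was also 5 without both stroma-high arrays. The calls of Iigp1 and Ifi35 held throughout, while without wild-type ileum 2 the difference of Usp18 was -0.83 (adjusted p = 0.217). The differences along the gut in both genotypes were compared by the interaction tests above, which called 0 members. Cell types also differed by position: all 5 Paneth cell markers were higher in ileum than in duodenum in both genotypes. Of 6 MHC class II genes 5 were called higher in Casp1-null ileum, where 10.8% of all genes were. In wild-type ileum 1 of the 6 was, where 2772 of all 18820 genes were. The interaction tests between segments called no MHC class II gene, so these counts do not show a difference by genotype. The part of these cell types in the members' differences was not tested.

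**Figure D5:**
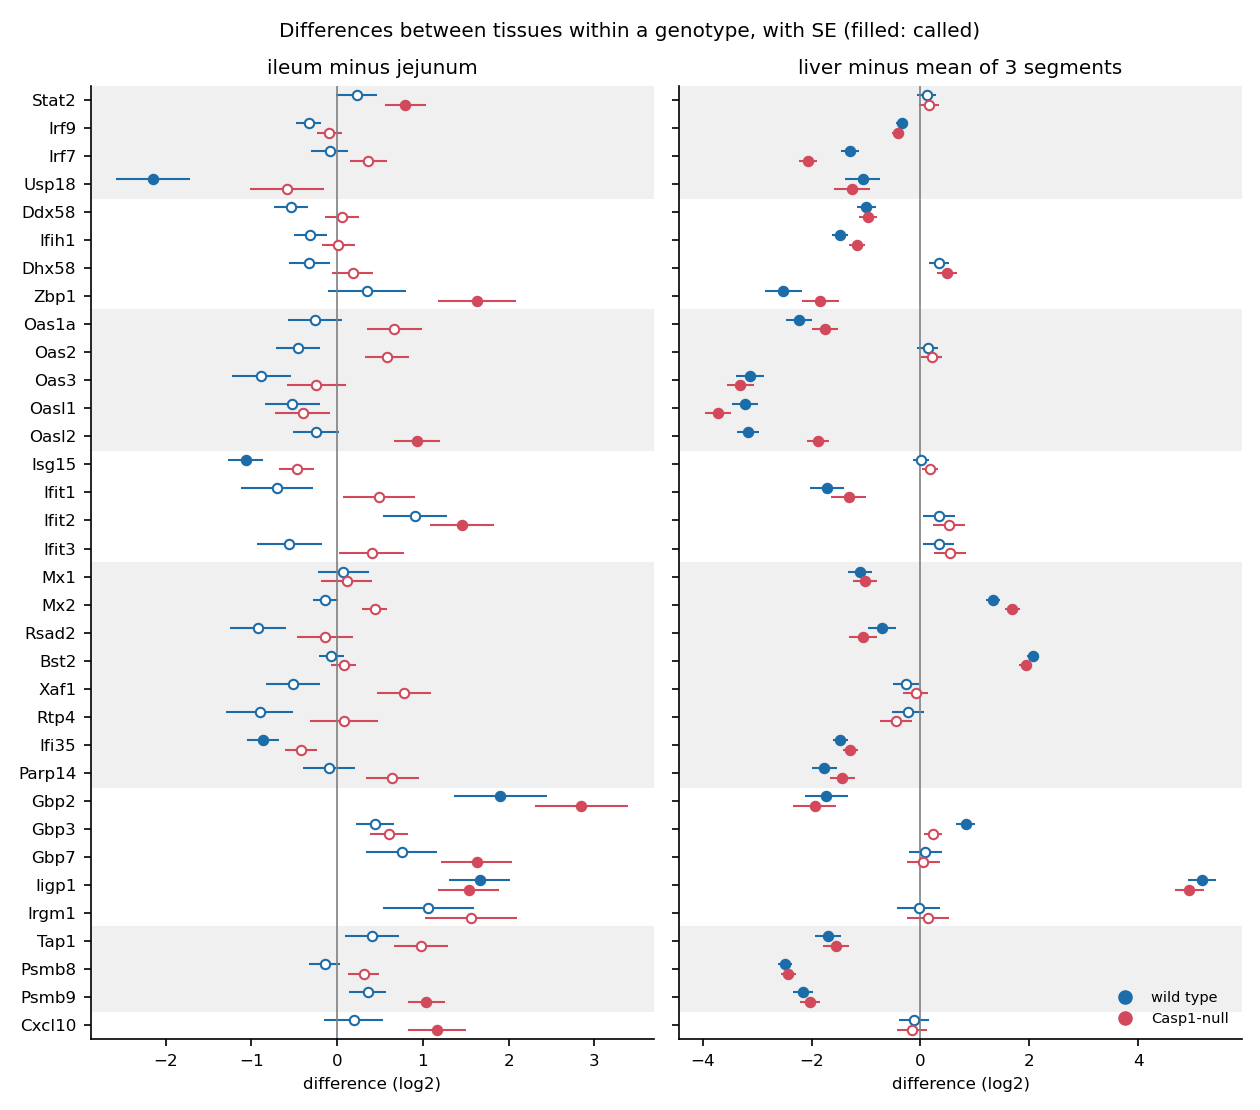
Log2 differences of the 34 members, ileum minus jejunum (left) and liver minus the mean of the 3 segments (right), in wild-type (blue) and Casp1-null (red) mice, with bars of 1 SE and filled points for called differences. Left, the red filled points all lie above 0 while blue filled points lie on both sides, and right, Iigp1 stands at 5.18 and 4.94 with most other members below 0.

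Liver and intestine differed for most members, as they did for most genes. Tissue here goes together with treatment, since livers came from fasted mice without oil and intestines from fasted mice given oil. It is not stated whether the arrays of liver and intestine were normalized jointly. In the wild type 23 of 34 members were called, where 70.1% of all genes were. Of the 34, 19 were called lower in liver, against 5857 of all 18820 genes. In the Casp1-null mice 23 were called, where 69.9% of all genes were, and again 19 were lower, against 5675 of all genes. The median difference of the members was -0.85 and -0.99, against 0.06 and 0.08 over all genes.

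Of the oligoadenylate synthetase family 4 of 5 members were lower in liver in both genotypes, and Oas2 was not called. Oasl1 was 9.31-fold lower in wild-type liver than in the mean of the segments (-3.22, adjusted p = 3.62e-10) and 13.3-fold lower in the Casp1-null mice (-3.73, adjusted p = 3.88e-11). Oasl2 was 9.02-fold lower in the wild type and 3.67-fold lower in the Casp1-null mice, adjusted p = 2.89e-11 and 8.79e-08. Oas3 was called lower as well, but its liver level was under the background mark, so no size is given. Of the class I suppliers, Psmb8 (-2.48) and Psmb9 (-2.15), both subunits of the immunoproteasome, and Tap1 (-1.70) were lower in wild-type liver.

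Iigp1 went the other way by the widest margin. Its liver arrays read 10.51, 10.48 and 10.58 in the wild type and 10.58, 10.24 and 10.27 in the Casp1-null mice, above all 18 intestinal arrays, which lay between 4.49 and 7.03. Bst2, the tether that holds budding virus at the cell surface, was 4.19-fold higher in wild-type liver (2.07, adjusted p = 3.27e-12) and 3.82-fold higher in Casp1-null liver (1.93, adjusted p = 1e-11). Mx2 was higher in liver as well, with its intestinal level under the background mark. Gbp3 was called higher in wild-type liver (0.83, adjusted p = 0.000238) and Dhx58, a modulator of the RNA sensors, in Casp1-null liver (0.49, adjusted p = 0.0324), and the interaction was called for neither gene. Levels of 6 Kupffer cell markers were 8.20 to 8.96 in liver and 3.79 to 4.25 in intestine, and their part in these differences was not tested.

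Genes upstream and beside the members mostly did not pass the test by genotype. Of 14 interferon genes measured, 0 were called by limma in any of the 4 tissues (unadjusted p under 0.05 for 4 in duodenum, 1 in jejunum, 1 in ileum and 0 in liver), and Ifnb1 and Ifng lay under the background mark in all 8 groups. Ifnl2, a type III interferon gene, lay above it in all 8, at much the same level in every tissue (group means of 5.82 to 6.24). The mark is taken over the whole array, so a level above it does not by itself show that Ifnl2 was expressed. Among 6 receptor subunits Ifnar1, a chain of the type I receptor, was called in jejunum, where the wild-type arrays read 9.69, 9.60 and 9.74 and the Casp1-null arrays 9.0, 9.21 and 9.24 (-0.53, SE 0.117, adjusted p = 0.0332). That call was lost without any 1 of the 6 jejunal arrays (adjusted p up to 0.137). Of 9 other signal transducers, 12 sensors and adaptors, 10 brakes and 6 MHC class II genes, 0 were called by limma in any tissue. In duodenum an unadjusted p under 0.05 was reached by 5 of the 9 transducers, 1 of the 12 sensors, 0 of the 10 brakes and 5 of the 6 MHC class II genes, and in jejunum by 1, 2, 1 and 0. In ileum these numbers were 0, 1, 1 and 0, and in liver 3, 0, 2 and 0. Of all 18820 genes, 2451 reached an unadjusted p under 0.05 in duodenum, 2433 in jejunum, 1299 in ileum and 2416 in liver.

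Of 37 further interferon-stimulated genes, Nmi, which binds Ifi35, fell in jejunum from 9.37, 9.40 and 9.24 to 8.50, 8.58 and 8.07 (-0.95, SE 0.182, adjusted p = 0.0129), a call that was lost without wild-type jejunum 1 or 2 or Casp1-null jejunum 3 (adjusted p up to 0.0702). Their median difference was -0.23 in jejunum, -0.11 in duodenum, 0.08 in ileum and -0.13 in liver. Another gene of that list, Ifi44l, rose in liver (adjusted p = 0.011), with Casp1-null arrays at 5.63, 6.35 and 6.40 and wild-type arrays at 3.93, 3.81 and 4.04, under the background mark. That call was lost without any 1 wild-type array or Casp1-null 2 (adjusted p up to 0.0732). Of 9 class I presentation genes Psmb10, the third inducible proteasome subunit, fell in liver from 8.68, 8.77 and 8.64 to 8.10, 8.00 and 8.04 (-0.65, SE 0.0874, adjusted p = 0.0342), and it too was lost without any 1 wild-type array, or without Casp1-null 2 or 3 (adjusted p up to 0.153). Of 9 interferon-gamma GTPases and chemokines the transcript of Cxcl11 rose in ileum.

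Cxcl11 read 6.36, 5.66 and 6.30 in wild-type ileum and 7.81, 7.95 and 7.85 in Casp1-null ileum, with no overlap (1.76, SE 0.184, adjusted p = 0.000105). That call was lost when the ileum was fitted without the other segments (adjusted p = 0.0582). Its genotype difference in ileum also differed from that in jejunum (1.86, SE 0.261, adjusted p = 0.0186), which was lost without wild-type jejunum 1 or 3, Casp1-null jejunum 2 or 3 or Casp1-null ileum 3 (adjusted p up to 0.0599). Cxcl10 in ileum read 6.79, 5.42 and 7.30 against 6.65, 6.41 and 7.12, which overlapped. Along the Casp1-null gut, 4 of the 9 genes of this list were higher in ileum than in jejunum and 0 were lower, led by Cxcl9 (2.91, adjusted p = 0.00039). Of the 6 receptor subunits 2 were lower and 0 higher, with Ifnar2 at -1.39 (adjusted p = 0.000163). Of all 18820 genes 1274 were called higher in that comparison and 1144 lower. In the wild type 4 of the 6 receptor subunits were lower in ileum than in jejunum, where 1268 of all 18820 genes were. Ifnar1 (-0.69, adjusted p = 0.00112) and Ifnar2 (-1.33, adjusted p = 0.000175) were among them.

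The ISRE letters printed above can be set beside the genotype differences. In jejunum the median difference was -0.38 over the 15 members with a match, -0.38 over the 10 whose windows held none and -0.71 over the 9 without a window, and these medians are a description of unequal sets. The upstream windows of Tap1 and Psmb9, which lie back to back, share 225 bases, so these genes count as 1 stretch of sequence there.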

How the data were processed

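RNA of liver and scraped intestinal epithelium was hybridised to single-colour Affymetrix whole-transcript arrays. Per the submitters' processing notes the authors used RMA, and the deposited table holds its log2 values for each probe set. The RMA version, and whether all 24 arrays were normalized jointly, are not given in the sources used here. No scaling was added. Of 35556 probe sets, 21218 carried 1 gene symbol, 1881 several and 12457 none. Those with 1 symbol covered 18820 genes, each read from its brightest such probe set on average.

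Models were fitted by limma 3.58.1 under R 4.3.3 (functions lmFit and eBayes, two-sided, Benjamini-Hochberg over 35556 probe sets, called at an adjusted p under 0.05). Liver was fitted on 6 arrays, the intestine on 18, comparisons of liver with intestine on 24, and the mean over segments on 6 means. Percentages called are over 18820 genes. Array number limits the precision: an exact permutation test of 3 against 3 cannot go below p = 0.1. The fit was tested on simulated data. Helpers were the R packages data.table (version 1.17.8) and statmod (1.5.0), and Python 3.11.15, pandas 2.3.3 and matplotlib 3.10.9.

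Members and lists were chosen with earlier results of these data known. Described in full are members called in a comparison and those at least 2-fold different by genotype with groups apart, and Casp1. Of other lists, genes were named from up to 4 called per comparison by smallest p, and the rest are counts. Promoter windows are RefSeq's of GRCm38.p6. Alternatives were other eBayes, filter, normalization, array weight, block, single-segment and leave-one-out fits.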

Additional observations from a re-analysis of the deposited data

Results flagged for a closer look

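The genotype difference of Oasl2 differed between liver and the mean of the 3 intestinal segments by 1.30 on the log2 scale (1.2959, SE 0.2817, adjusted p = 0.0175 by limma's interaction term), and this difference between tissues is why it is listed here. Oasl2 was lower in Casp1-null duodenum and jejunum, while in liver both genotypes overlapped. Without wild-type liver 2 the value was 1.222 (adjusted p = 0.0691), without Casp1-null liver 2 it was 1.26 (0.0577) and without Casp1-null liver 3 it was 1.214 (0.0675). The tissue goes with the treatment, a fast without oil against a fast followed by an oil load, and these cannot be told apart. The genotype difference of Cxcl11 differed between ileum and jejunum by 1.86 (1.8647, SE 0.2608, adjusted p = 0.0186 by the interaction term). Cxcl11 is not among the 34 members. It was higher in Casp1-null ileum in every array, and in jejunum both genotypes overlapped. The value was 1.64 to 1.99 over the alternatives, with adjusted p from 0.011 to 0.0599. Groups of 3 arrays are too small for a test of single outlying arrays.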

How the results depend on the processing

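The genotype calls of Oasl2 were kept under all alternatives run, at -2.00 to -1.62 in duodenum and -1.96 to -1.62 in jejunum, and 0 changed sign of the differences recomputed for single genes (those called by genotype, along the intestine or by interaction, and those at least 2-fold by genotype with groups apart). Counts of members called moved as follows. In liver (0 called) a filter at the median gave 3, array weights 1 and leaving out single arrays 0 to 1. In jejunum (1) the segment alone gave 2, leaving out both stroma-high ileal arrays, an alternative chosen after seeing the data, gave 2, and single arrays 1 to 2. For wild-type duodenum minus jejunum (0) array weights gave 2, both stroma-high arrays out 1 and single arrays 0 to 1. For wild-type ileum minus duodenum (8) both stroma-high arrays out gave 5 and single arrays 2 to 9. For Casp1-null mice single arrays gave 0 to 1 in duodenum minus jejunum (0), 2 to 10 in ileum minus jejunum (9) and 6 to 13 in ileum minus duodenum (11). For the liver interaction (1) array weights gave 2 and single arrays 0 to 1. Fewer arrays also leave fewer degrees of freedom, and otherwise the cause was not tested. Arrays with equal replicate numbers had correlations of -0.376 to 0.304 between genotypes (1 of 12 over 0.1). Between segments these were -0.0978 to 0.173 (5 of 18 over 0.1). Between Casp1-null segments they were -0.0504 to 0.173 for equal numbers and -0.21 to 0.157 for unequal ones. Such overlapping ranges do not settle whether equal numbers mean the same mouse, and the main fits treat the arrays as independent. With the number as a replicate block, calls were 0 in liver, 1 in duodenum, 1 in jejunum, 0 in ileum and 7 instead of 9 in Casp1-null ileum minus jejunum, and no other count of members changed. The same block lost the calls of Ifnar1 in jejunum, Psmb10 in liver and the Cxcl11 interaction. An alternative with other probe sets could not be run, since no member has a second probe set of its own. A level near the array median limits what can be read for Isg15, Mx2, Ifit2, Iigp1, Oas3 and Mx1.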
